A study of Mus musculus with 13 samples.

Results

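The miR-378 family in mouse plasma is described here through its 5 mature miRNAs: mmu-miR-378a-3p (MIMAT0003151 in the table), mmu-miR-378a-5p (MIMAT0000742), mmu-miR-378b (MIMAT0019348), mmu-miR-378c (MIMAT0025138) and mmu-miR-378d (MIMAT0025167), written below without the species prefix. They were taken by name from a table of 1907 mature miRNAs, of which 1203 had at least 1 count in any of 13 plasma libraries. All 5 members had counts in each of the 13 libraries, and all 5 were among the 368 miRNAs that passed the filter on low counts. Its minimum was 10 counts, set relative to library size. In naive wt libraries miR-378c had 5, 7 and 8 counts and miR-378d 11, 10 and 10. Both thus passed only through the mdx libraries, where they are higher, and other miRNAs low in naive wt plasma can pass in the same way.

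The study measured small RNA in plasma of male mice by sequencing, to ask how the miRNA content of plasma differs in mdx mice, which lack dystrophin through a mutation of the Dmd gene and serve as a model of Duchenne muscular dystrophy, and how it differs under Givinostat, an inhibitor of histone deacetylases. The Givinostat group held 3 mdx mice that received 37.5 mg/kg of the drug by gavage, suspended in 0.5% methylcellulose, on 5 days a week for 15 weeks. The vehicle group held 4 mdx mice that received the methylcellulose alone on the same schedule. The naive mdx group held 3 mdx mice and the naive wt group 3 wild-type mice, and neither was given any treatment, although both took part in the functional tests. The mdx mice were C57BL/10ScSn-Dmd mdx and the wild-type mice C57BL/10J, although the strain label reads C57BL/10J for every sample. Mice were bought at 7 to 8 weeks of age, and all plasma was taken at T16, after the dosing period. Since strain source and mutation differ together between mdx and wt mice, their parts in a difference cannot be told apart. Each library came from 1 mouse, so the spread within a group holds both biological and technical variation.

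MicroRNAs are short RNAs cut from hairpin precursors, and they direct the silencing complex to messenger RNAs that pair with bases near the 5′ end, the seed. The hairpin of miR-378a lies inside Ppargc1b, the gene of the coactivator PGC-1β, which drives mitochondrial and fatty acid metabolism, and miR-378a is abundant in skeletal muscle, heart and brown fat. In mouse cells and tissues, miR-378a-3p has been shown to act on Crat, a mitochondrial enzyme of fatty acid metabolism, and on Msc, a repressor of myoblast differentiation, while miR-378a-5p acts on Med13, a subunit of the Mediator complex. miR-378b, miR-378c and miR-378d are related miRNAs from hairpins elsewhere in the genome, and much less is known of what they do.

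The mature sequences of 3 of the 5 members, shown because the members are told apart by few bases, were matched by name in RefSeq (GRCm38.p6). The reference used held no entry for miR-378a-3p and miR-378a-5p, so the runs they share with other members were not computed. The capitals mark the seed, bases 2 to 8 counted from the 5′ end.
miR-378b: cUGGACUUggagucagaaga
miR-378c: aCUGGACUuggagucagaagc
miR-378d: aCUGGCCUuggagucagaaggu
miR-378b and miR-378c share a run of 19 bases, which starts at base 1 of miR-378b and at base 2 of miR-378c, so that the same letters are set 1 base apart and give different seeds. Over the first 21 bases, counted from the 5′ end, miR-378c and miR-378d differ by A6C, inside the seed, and by C21G. miR-378d shares a run of 14 bases with each of miR-378b and miR-378c.

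The hairpins are shown because the mature miRNA lies in different arms of them, and their capitals mark the mature miRNA.
Mir378b hairpin: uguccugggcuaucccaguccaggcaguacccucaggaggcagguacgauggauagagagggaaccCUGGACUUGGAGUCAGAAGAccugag
Mir378c hairpin: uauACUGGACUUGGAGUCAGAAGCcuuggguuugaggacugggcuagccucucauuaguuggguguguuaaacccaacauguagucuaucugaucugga
Mir378d hairpin: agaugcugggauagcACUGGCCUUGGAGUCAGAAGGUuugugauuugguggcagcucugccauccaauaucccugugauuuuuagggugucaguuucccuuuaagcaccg
The mature miRNA starts at base 67 of 92 in the hairpin of Mir378b, at base 4 of 99 in that of Mir378c and at base 16 of 110 in that of Mir378d. The longest run common to any pair of these hairpins was no longer than the run shared by their mature miRNAs. On GRCm38, Mir378b lies on the plus strand at chr11:88352773-88352864, opposite an intron of Msi2. Mir378c lies on the minus strand at chr14:46954830-46954928, opposite an intron of Samd4. Mir378d lies on the minus strand at chr10:126710282-126710391 and overlaps no other gene of the GENCODE M21 annotation. The authors mapped reads of up to 25 nucleotides with no mismatch, and how reads that match several loci were divided is not given in the sources used here. A read that lies within a run shared by members fits more than 1 of them, so the split of counts between near-identical members is uncertain.

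Mir378a lies on the minus strand of chromosome 18, from 61397835 to 61397900 on GRCm38, in an intron of Ppargc1b on the same strand as that gene. It also overlaps Gm25301, annotated as a miRNA gene on the opposite strand. The hairpin of Mir378a gives both miR-378a-3p and miR-378a-5p.

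Libraries held between 1364813 and 1437031 counts over all mature miRNAs in Givinostat mice, 1283646 to 1522871 in vehicle mice, 1167161 to 1556118 in the naive mdx mice and 1446195 to 2899315 in the naive wt mice. The liver miRNA miR-122-5p took 1.37% to 16.1% of the counts in the 10 mdx libraries and 37.6% to 64.6% in the naive wt libraries. A list of 15 miRNAs of skeletal muscle and heart took 28.3% to 46.8% in the mdx libraries and 0.707% to 2.09% in the naive wt libraries. For this reason levels are given as counts per 1000000 counts (CPM) after scaling by trimmed mean of M values (TMM), which sets libraries to a common level of most miRNAs, and the main results are also given as ratios within a library, which need no scaling.

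The 5 members together made up 1.13% to 1.40% of the counts in Givinostat libraries, 1.48% to 2.05% in vehicle libraries, 1.69% to 2.32% in naive mdx libraries and 0.105% to 0.191% in naive wt libraries. The Wilson 95% interval of the largest of these shares ran from 2.30% to 2.35% and that of the smallest from 0.101% to 0.109%, and such intervals cover counting error only. Within the family, miR-378a-3p held 77.5% to 90.2% of the counts, miR-378a-5p 7.41% to 20.3%, miR-378b 0.918% to 3.34%, miR-378d 0.328% to 0.698% and miR-378c 0.214% to 0.315%. Ranked by counts within its library, miR-378a-3p stood at place 15 to 18 in Givinostat mice, 14 to 15 in vehicle mice, 10 to 18 in the naive mdx mice and 61 to 64 in the naive wt mice.

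Each of the 5 members was higher in plasma of all 10 mdx mice than in plasma of any naive wt mouse, as were 21.2% of all tested miRNAs. The fold changes of the members lay between 8.06 and 21.7 in the 3 comparisons of an mdx group with naive wt mice, and between 4.24 and 13.1 where libraries were scaled by their totals without miR-122-5p. In plasma, more cells that release a miRNA and more RNA released per cell cannot be told apart. Values of single mice are in the order of their numbers in the labels: 31, 34 and 35 for Givinostat, 40 to 43 for vehicle, 36, 37 and 39 for naive mdx, and 86, 89 and 95 for naive wt. miR-378a-3p, the main guide strand of the family, stood at 10153, 12074 and 9991 CPM in the Givinostat mice, 12967, 17212, 14399 and 14627 CPM in the vehicle mice, 10907, 21701 and 12517 CPM in the naive mdx mice, and 1306, 1407 and 1285 CPM in the naive wt mice. The naive wt mice lay close together, with a coefficient of variation of 4.89%, and naive mdx mouse 37 stood above every other mouse. Givinostat mice averaged 10739 ± 1158 CPM, vehicle mice 14801 ± 1767 CPM, naive mdx mice 15042 ± 5823 CPM and naive wt mice 1333 ± 65.2 CPM (SD, n = 3, 4, 3 and 3).

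miR-378a-5p, from the other arm of the hairpin, stood at 1532, 2072 and 2621 CPM in the Givinostat mice, 3184, 1601, 2532 and 2420 CPM in the vehicle mice, 1619, 2144 and 1179 CPM in the naive mdx mice, and 142.5, 115.6 and 128 CPM in the naive wt mice. The lowest mdx mouse was the naive mdx mouse 39 and the highest the vehicle mouse 40, an order unlike that of miR-378a-3p. The group means were 2075 ± 544 CPM in Givinostat mice, 2434 ± 650 CPM in vehicle mice, 1647 ± 483 CPM in the naive mdx mice and 129 ± 13.4 CPM in the naive wt mice (SD, n = 3, 4, 3 and 3).

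miR-378b stood at 228, 348 and 193.7 CPM in the Givinostat mice, 221, 398, 325 and 341 CPM in the vehicle mice, 282, 619 and 478 CPM in the naive mdx mice, and 22.2, 28.2 and 13.2 CPM in the naive wt mice. Its highest values were those of the naive mdx mice 37 and 39, and the 3 mdx groups overlapped. miR-378d stood at 47.7, 95.6 and 53.0 CPM in the Givinostat mice, 70.5, 134, 84.6 and 101 CPM in the vehicle mice, 61.4, 151 and 99.95 CPM in the naive mdx mice, and 6.97, 5.64 and 4.70 CPM in the naive wt mice. The mdx groups overlapped here as well, with naive mdx mouse 37 again the highest.

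miR-378c, the least abundant member, stood at 32.8, 42.3 and 30.6 CPM in the Givinostat mice, 38.4, 55.9, 52.3 and 45.5 CPM in the vehicle mice, 34.4, 77.8 and 36.9 CPM in the naive mdx mice, and 3.17, 3.95 and 3.76 CPM in the naive wt mice. In naive wt mice these levels rest on 5, 7 and 8 counts, whose exact Poisson 95% intervals run from 1.62 to 11.7, 2.81 to 14.4 and 3.45 to 15.8 counts, and those of miR-378d rest on 11, 10 and 10 counts. The order of the group means was naive mdx, vehicle, Givinostat and naive wt for 4 of the members, and vehicle, Givinostat, naive mdx and naive wt for miR-378a-5p. Among neighbours in these orders, only the step to naive wt passed the test given next.

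**Figure D1:**
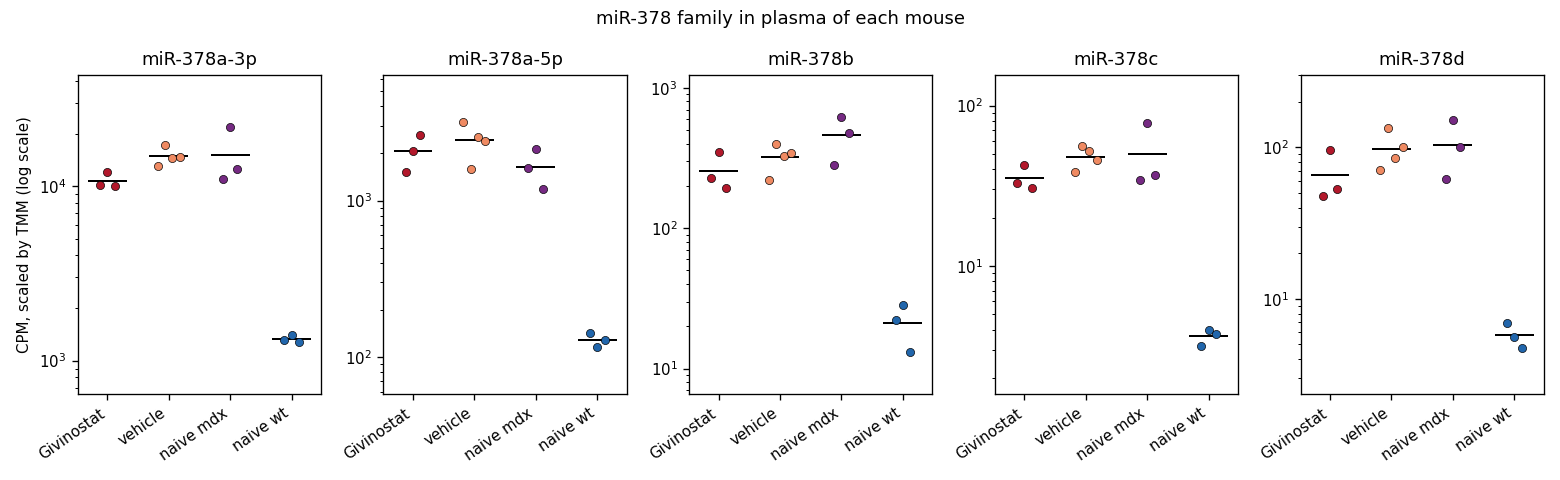
Level of each member in plasma of each mouse, in CPM scaled by TMM on log axes that differ between panels. Points are mice and lines are group means. In every panel the 3 naive wt mice lie below all 10 mdx mice; the naive wt values of miR-378a-3p lie between 1285 and 1407 CPM.

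Differences were tested by edgeR's quasi-likelihood test in 1 model over the 13 libraries, and a miRNA was called where its p-value, adjusted by Benjamini-Hochberg over all 368 tested miRNAs, was under 0.05. In naive mdx mice against naive wt mice all 5 members were called higher, where 26.9% of the tested miRNAs were. The fold change was 11.3 for miR-378a-3p (95% confidence interval 7.49 to 17.0), 12.8 for miR-378a-5p (8.01 to 20.4), 21.7 for miR-378b (12.2 to 38.8), 13.3 for miR-378c (7.45 to 23.9) and 17.9 for miR-378d (9.51 to 33.8), with adjusted p from 1.03e-07 to 1.57e-06. These intervals overlap. The ratio of each other member to miR-378a-3p was tested between these groups as well, but the exact permutation test of 3 against 3 mice cannot give a p under 0.1, so that an order of the members by fold change was not resolved. The size of these changes depended on the scaling. Over all tested miRNAs the median log2 fold change was 0.04 under TMM, 0.43 under library totals, -0.20 under upper-quartile scaling and -0.62 under library totals without miR-122-5p. Under this last scaling miR-378a-3p was 6.70-fold higher in naive mdx than in naive wt mice, which is below the interval given above, and the 5 members had log2 fold changes of 2.74 to 3.71. All 5 were called higher under each of these scalings. Since miR-378c and miR-378d passed the filter through the mdx libraries, the test was also run without it. All 5 were then called higher, as were 112 of 1203 miRNAs.

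In vehicle mice against naive wt mice all 5 members were called higher too, where 24.2% of the tested miRNAs were. The log2 fold changes were 3.47 (SE 0.27) for miR-378a-3p, 4.24 (SE 0.32) for miR-378a-5p, 3.92 (SE 0.38) for miR-378b, 3.69 (SE 0.39) for miR-378c and 4.07 (SE 0.42) for miR-378d, with adjusted p in edgeR from 5.20e-08 to 1.47e-06. miR-378a-5p had the largest change of the 5 here, at a fold of 18.9 (95% confidence interval 11.8 to 30.3). In Givinostat mice against naive wt mice all 5 were again called higher, where 22.6% of the tested miRNAs were. The log2 fold changes were 3.01 (SE 0.27) for miR-378a-3p, 4.01 (SE 0.32) for miR-378a-5p, 3.60 (SE 0.38) for miR-378b, 3.25 (SE 0.40) for miR-378c and 3.49 (SE 0.43) for miR-378d, with adjusted p from 1.22e-07 to 9.33e-06 in edgeR. The mean of the 3 mdx groups against naive wt mice gave 5 calls as well, where 28.8% of the tested miRNAs were called higher, and a fold of 10.0 for miR-378a-3p (95% confidence interval 6.89 to 14.6). These comparisons share the naive wt mice, so they are not independent of each other.

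**Figure D2:**
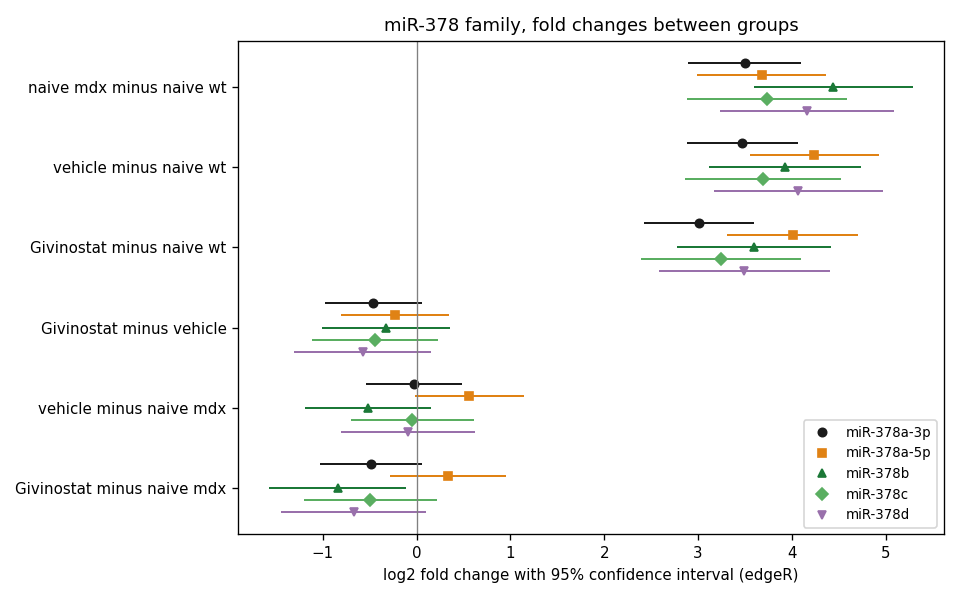
Log2 fold change of each member between groups, with the 95% confidence interval from edgeR; the vertical line marks no change. The intervals of the 3 comparisons with naive wt mice lie above 2.4, while in the comparisons between mdx groups all but that of miR-378b in Givinostat minus naive mdx reach across 0.

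The abundance of the red cell miRNA miR-451a over miR-23a-3p, which is commonly used as a readout of red cell lysis in plasma, also separated the genotypes. Its log2 value averaged -1.03 ± 0.44 in Givinostat mice, -1.91 ± 0.22 in vehicle mice, -2.20 ± 0.44 in the naive mdx mice and 0.01 ± 0.11 in the naive wt mice (SD, n = 3, 4, 3 and 3). The reference miR-23a-3p took 0.860% to 1.44% of the counts in mdx libraries and 0.331% to 0.798% in naive wt libraries, without overlap. The shares of miR-451a overlapped, at 0.209% to 0.621% and 0.356% to 0.740%. The large miR-122-5p part lowers all such shares in naive wt libraries. Under TMM miR-451a itself was lower in naive mdx than in naive wt mice, with a log2 fold change of -1.17 (edgeR adjusted p = 0.00106). Under library totals it was -0.82 and not called (edgeR adjusted p = 0.0756). The ratio thus differs through its reference as well, and how much of it reflects lysis was not tested. With this red cell ratio as a covariate, edgeR called 0 of the 5 members in naive mdx against naive wt mice (adjusted p 0.169 to 0.492), and 1 of all 368 miRNAs. All 5 members then had an unadjusted p under 0.05 in edgeR, as did 29 of all 368 miRNAs. The log2 fold changes of the members were 1.90 to 4.09, with standard errors of 0.72 to 1.12. In vehicle against naive wt mice the covariate left 0 of 5 called (adjusted p in edgeR 0.0512 to 0.166) and 2 of all 368 miRNAs. All 5 had an unadjusted p under 0.05 in edgeR there, as did 33 of all 368 miRNAs. In Givinostat against naive wt mice the covariate left 5 of 5 called, and 22 of all 368 miRNAs. DESeq2 was run without this covariate and called all 5 in each of the 3 comparisons. Of the miRNAs it gave an adjusted p-value, it called 105 of 597 higher in naive mdx, 96 of 643 in vehicle and 85 of 527 in Givinostat mice. Genotype and the red cell ratio cannot be told apart here, as the mdx and naive wt mice do not overlap in it.

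No member was called between Givinostat and vehicle mice, although all 5 estimates were below 0. For miR-378a-3p the 3 Givinostat mice, at 9991 to 12074 CPM, all lay below the 4 vehicle mice, at 12967 to 17212 CPM, and 3.26% of the tested miRNAs were lower in this way without overlap. Its log2 fold change was -0.46 (95% confidence interval -0.97 to 0.04, edgeR adjusted p = 0.710). The estimates were -0.23 (-0.80 to 0.34) for miR-378a-5p, -0.33 (-0.998 to 0.35) for miR-378b, -0.45 (-1.10 to 0.21) for miR-378c and -0.58 (-1.30 to 0.15) for miR-378d, with adjusted p up to 0.861. edgeR called 0.272% of the tested miRNAs in this comparison, which is the 1 miRNA miR-92b-3p, named here after its values were seen. None of the members had an unadjusted p under 0.05 in edgeR, and DESeq2 called none of them, with 1, miR-378a-3p, at an unadjusted p under 0.05. The intervals leave room for a fall of miR-378a-3p to a fold of 0.511 and for a rise to 1.03.

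Between vehicle and naive mdx mice edgeR called 0.00% of the tested miRNAs, and no member had an unadjusted p under 0.05. DESeq2 called no member either, with 1, miR-378a-5p, at an unadjusted p under 0.05. The log2 fold changes were -0.02 (95% confidence interval -0.52 to 0.48) for miR-378a-3p, 0.56 (-0.01 to 1.14) for miR-378a-5p, -0.52 (-1.18 to 0.15) for miR-378b, -0.05 (-0.69 to 0.60) for miR-378c and -0.09 (-0.80 to 0.61) for miR-378d. miR-378a-5p and miR-378b thus had estimates of opposite sign, each with an interval that included 0 (adjusted p = 0.801 in edgeR for both).

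Between Givinostat and naive mdx mice edgeR likewise called 0.00% of the tested miRNAs. miR-378b had the largest estimate of the members, a log2 fold change of -0.84 (95% confidence interval -1.56 to -0.12), and was the only member with an unadjusted p under 0.05, but its adjusted p was 0.310, and DESeq2 called no member, with miR-378b again the 1 at an unadjusted p under 0.05. The other estimates were -0.49 for miR-378a-3p, 0.33 for miR-378a-5p, -0.49 for miR-378c and -0.67 for miR-378d, with adjusted p of 0.421 to 0.638 in edgeR. These 3 comparisons share their groups in pairs and are not independent.

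Whether the members keep a fixed proportion was examined by their counts per 100 counts of miR-378a-3p in the same library. miR-378c was nearly constant, at 0.323, 0.350 and 0.307 in Givinostat mice, 0.296, 0.325, 0.363 and 0.311 in vehicle mice, 0.316, 0.358 and 0.295 in naive mdx mice, and 0.242, 0.281 and 0.293 in naive wt mice. The mdx groups overlapped fully. The naive wt mice lay just below them, on 5, 7 and 8 counts, and overlapped with them once 0.5 was added to each count, as in the ratios tested. Over all 10 mdx mice against naive wt mice the log2 ratio differed by 0.16 (two-sided exact permutation test, p = 0.0769, adjusted p = 0.185). The part of reads that fit both members in this constancy was not tested.

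The balance of the hairpin's arms varied far more. miR-378a-5p had 15.1, 17.2 and 26.2 counts per 100 of miR-378a-3p in Givinostat mice, 24.6, 9.30, 17.6 and 16.5 in vehicle mice, 14.8, 9.88 and 9.42 in naive mdx mice, and 10.9, 8.22 and 9.96 in naive wt mice. The 3 Givinostat mice all lay above the 3 naive mdx mice and the 3 naive wt mice, while the vehicle mice spanned nearly the whole range, from mouse 41 to mouse 40. The log2 ratio differed by 0.24 between Givinostat and vehicle mice (exact permutation test, two-sided, p = 0.686), by 0.53 between vehicle and naive mdx mice (p = 0.229, same exact test) and by 0.65 between all 10 mdx mice and naive wt mice (p = 0.0839, same exact test), with adjusted p of 0.748, 0.366 and 0.185 in this order. Givinostat against naive mdx mice was not tested for this ratio.

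miR-378b had 2.24, 2.88 and 1.94 counts per 100 of miR-378a-3p in Givinostat mice, 1.71, 2.31, 2.26 and 2.33 in vehicle mice, 2.58, 2.85 and 3.82 in naive mdx mice, and 1.70, 2.00 and 1.03 in naive wt mice. Every naive mdx mouse lay above every vehicle mouse and every naive wt mouse. The log2 ratio was 0.99 higher in naive mdx than in naive wt mice (exact permutation test, two-sided, p = 0.1, the smallest that 3 against 3 mice allow) and 0.51 lower in vehicle than in naive mdx mice (p = 0.0571, the smallest that 4 against 3 allow), both at an adjusted p of 0.185. miR-378d ran from 0.470 to 0.791 per 100 in Givinostat mice, 0.544 to 0.778 in vehicle mice, 0.563 to 0.799 in the naive mdx mice and 0.366 to 0.533 in the naive wt mice. Its log2 ratio was 0.60 higher in naive mdx than in naive wt mice, without overlap (exact permutation test, p = 0.1, adjusted p = 0.185). Over all 10 mdx mice against naive wt mice, with overlap, the log2 ratio was 0.66 higher for miR-378b and 0.51 higher for miR-378d. The exact permutation tests gave p = 0.035 and 0.028, each at an adjusted p of 0.185. Adjusted p-values are over the 24 such tests made, of 6 values in 4 comparisons. None of the 24 adjusted p-values was under 0.05. Only the comparison of all 10 mdx mice with naive wt mice could give an unadjusted p under 0.05. The tests therefore cannot decide whether the proportions are fixed.

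**Figure D3:**
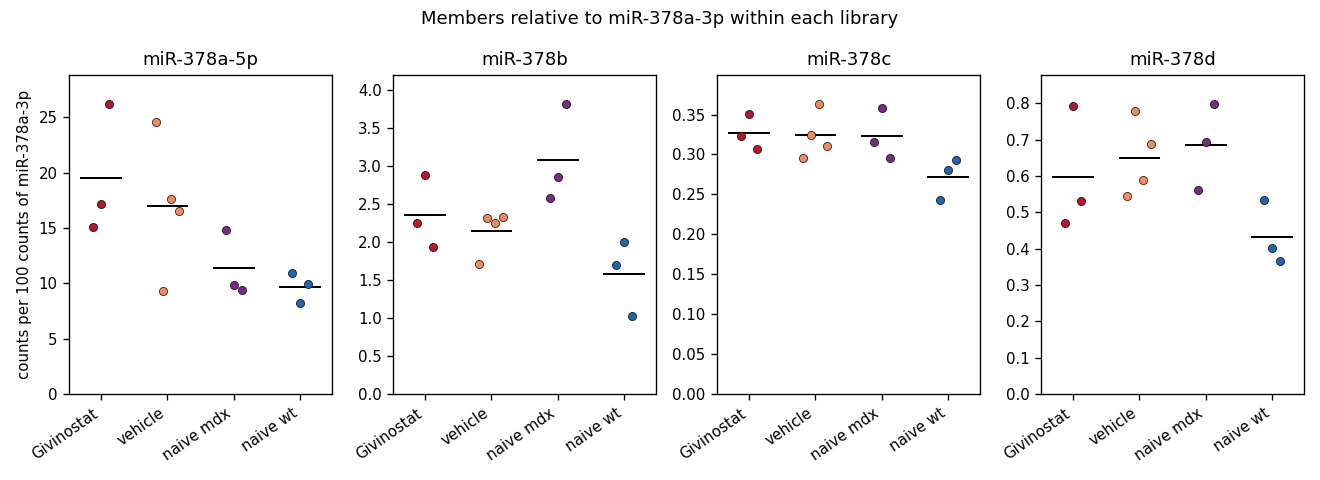
Counts of each other member per 100 counts of miR-378a-3p in the same library, by mouse, on linear axes from 0 that differ between panels; lines are group means. miR-378c stays between 0.242 and 0.363 in all mice, whereas miR-378a-5p runs from 8.22 to 26.2.

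The family was set against the list of 15 miRNAs of skeletal muscle and heart (miR-1a, miR-133, miR-206, miR-208 and miR-499 arms) within each library. The log2 ratio of summed family counts to summed muscle counts averaged -5.06 ± 0.31 in Givinostat mice, -4.47 ± 0.30 in vehicle mice, -4.09 ± 0.08 in the naive mdx mice and -3.26 ± 0.44 in the naive wt mice (SD, n = 3, 4, 3 and 3). All 10 mdx mice lay below every naive wt mouse, from -5.37 to -4.01 against -3.57 to -2.75. The difference of the ratio was -1.28 between mdx and naive wt mice (exact permutation test, two-sided, p = 0.00699, the smallest that 10 against 3 allow, adjusted p = 0.0839). Every vehicle mouse also lay below every naive mdx mouse, with a difference of -0.38 (exact permutation test, p = 0.0571, adjusted p = 0.185). Givinostat mice averaged 0.60 below vehicle mice and overlapped with them by 1 pair of close values (exact permutation test, p = 0.114, adjusted p = 0.196).

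As a share of the library, the family averaged 1.30% ± 0.15 in Givinostat mice and 1.79% ± 0.26 in vehicle mice (SD, n = 3 and 4), without overlap, a difference of -0.49 percentage points (exact permutation test, two-sided, p = 0.0571, adjusted p = 0.185). In the same mice the muscle list took 38.0% to 46.8% of the counts under Givinostat and 35.5% to 42.6% under vehicle, and the red cell log2 ratio was -1.54 to -0.69 under Givinostat and -2.13 to -1.67 under vehicle, without overlap. With the red cell ratio as covariate, the log2 fold changes of the members in Givinostat minus vehicle ran from -0.39 to 0.42, with standard errors of 0.35 to 0.54. In the main fit they ran from -0.58 to -0.23, with standard errors of 0.24 to 0.34. No member was called in either fit. The part of the muscle list or of the red cell ratio in the lower family share was not tested.

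**Figure D4:**
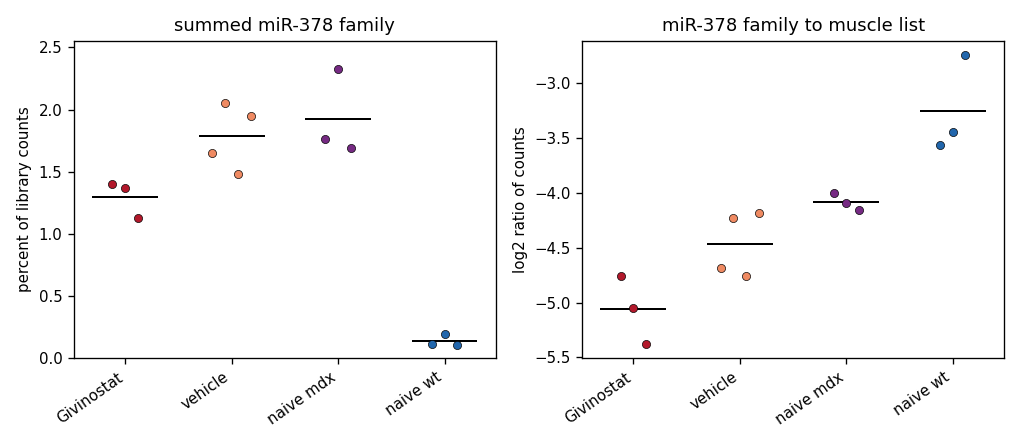
Left, summed counts of the 5 members as a percentage of all counts in the library; right, log2 ratio of summed family counts to summed counts of the muscle list. Points are mice and lines group means; the 3 Givinostat mice lie below the 4 vehicle mice on the left, and all 10 mdx mice lie below the 3 naive wt mice on the right.

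Across the 10 mdx mice, the log2 CPM of miR-378c followed that of miR-378a-3p most closely (Pearson r = 0.97, Spearman rho = 0.95, permutation p = 6.00e-05 and 0.00012, adjusted p of r = 0.00036). miR-378d followed it with r = 0.91 and rho = 0.89 (permutation p = 0.0002 and 0.00112, adjusted p of r = 0.0006), and miR-378b with r = 0.79 and rho = 0.68 (permutation p = 0.00814 and 0.0348, adjusted p 0.0163 and 0.0696). miR-378a-5p, though cut from the same hairpin, gave r = 0.10 and rho = 0.08 (permutation p = 0.793 and 0.839). Without vehicle mouse 41 and naive mdx mouse 37, the 2 mice farthest from the median of miR-378a-3p, r was 0.91 for miR-378c, 0.82 for miR-378d, 0.56 for miR-378b and 0.32 for miR-378a-5p. Deviations from the group means gave 0.97, 0.87, 0.83 and 0.14 in the same order of members. The relation of miR-378b rests in part on those 2 mice, and all these values share the scaling factor of their library. The part of reads that fit both members in these relations was not tested.

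Summed family and summed muscle list gave r = 0.27 and rho = 0.05 over the same mice (permutation p = 0.450 and 0.888), and r of -0.09 without naive mdx mice 36 and 39. Their deviations from the group means gave r = 0.74 under TMM, so that family and muscle list varied together within groups under this scaling, and 0.14 under library totals. The summed family and the red cell log2 ratio gave r = -0.67 and rho = -0.60 (permutation p = 0.0280 and 0.0741, adjusted p 0.0420 and 0.111), and r = -0.62 without Givinostat mice 31 and 34. On deviations from group means this r was -0.50, and -0.04 under scaling by library totals, so that it did not hold within groups under both scalings. Adjusted p-values are over the 6 relations computed.

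**Figure D5:**
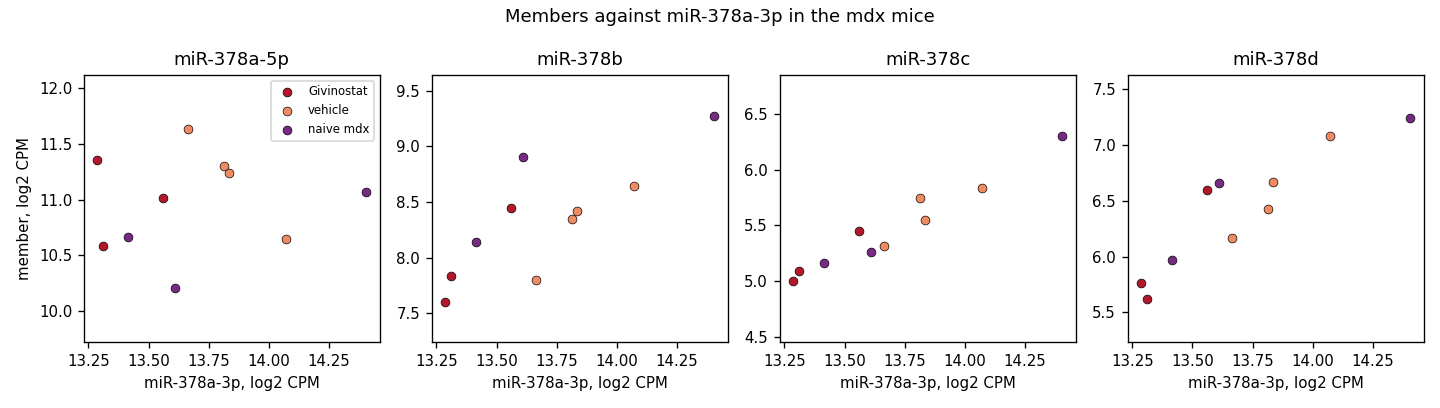
Log2 CPM (TMM) of each other member against that of miR-378a-3p in the 10 mdx mice, coloured by group; each vertical axis spans the same range of log2 units. miR-378c lies close to a line with r = 0.97, and miR-378a-5p shows no such order, with r = 0.10.

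Profiles over all 13 libraries were compared by the root mean square difference of log2 CPM from miR-378a-3p after each was centred on its own mean, so that a small value means a like pattern. miR-378c stood at 0.11 and miR-378d at 0.27, both nearer than any of the 363 tested miRNAs outside the family, whose median was 1.53. miR-378b stood at 0.41 and miR-378a-5p at 0.52, which would be places 3 and 5 in the order of the others. The part of reads that fit both members in this nearness was not tested. The nearest 8 outside the family were miR-22-5p at 0.30, miR-7689-3p at 0.35, miR-365-1-5p at 0.49, miR-22-3p at 0.49, miR-193b-3p at 0.53, miR-149-5p at 0.53, miR-504-5p at 0.56 and miR-7068-3p at 0.61. miR-22 is a miRNA of striated muscle among other tissues, and both of its arms are in this set. miR-193b and miR-365-1 come from neighbouring hairpins and are known in brown fat. The measure is dominated by the step between mdx and naive wt mice: in naive mdx against naive wt mice the 8 had log2 fold changes from 2.70, for miR-22-3p, to 4.51, for miR-7689-3p. miR-22-3p, at a mean of 37439 CPM, was more abundant than miR-378a-3p, while miR-7068-3p averaged 8.27 CPM.

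Lists of miRNAs of other tissues and cells were counted beside the family, in naive mdx against naive wt mice and by the same edgeR test, which called 26.9% of all tested miRNAs higher and 16.6% lower. This balance depended on the scaling: 99 miRNAs were higher and 61 lower under TMM, 118 and 23 under library totals, 82 and 96 under upper-quartile scaling, and 58 and 153 under library totals without miR-122-5p. Of the muscle list, 8 of 15 were tested and 7 were higher, and the median over the tested members was 4.62 on the log2 scale. Its 4 most abundant members changed by 4.26 (SE 0.36, miR-206-3p, of regenerating fibres), 3.82 (SE 0.53, miR-1a-3p), 4.97 (SE 0.42, miR-133a-3p) and 6.51 (SE 0.43, miR-133a-5p). Of 12 miRNAs of brown fat, a tissue in which miR-378a is known to be abundant, 11 were tested, and 6 were higher and 4 lower, with a median of 1.02. miR-30c-5p was 1.02 higher (SE 0.24) and miR-30b-5p 1.15 higher (SE 0.26), while miR-203-3p fell by 1.497 (SE 0.37) on the log2 scale and miR-182-5p, at -0.73 (SE 0.34), was not called. The largest rises of the brown fat list were those of miR-193b-5p at 4.03 (SE 0.65), miR-193b-3p at 3.07 (SE 0.41) and miR-365-3p at 2.59 (SE 0.33). Of these, miR-193b-3p is also among the 8 profiles nearest to miR-378a-3p. Beside miR-203-3p, those called lower were miR-455-3p at -2.18 (SE 0.42), miR-455-5p at -1.92 (SE 0.35) and miR-32-5p at -1.23 (SE 0.45). Under library totals miR-32-5p was not called (adjusted p in edgeR 0.159). Apart from miR-193b-3p and miR-203-3p, these miRNAs are named after their values were seen. Under library totals without miR-122-5p, 4 of the 11 were higher and 5 lower, and miR-30c-5p and miR-30b-5p were no longer called (adjusted p in edgeR 0.245 and 0.131).

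Of 7 other miRNAs that lie in genes of metabolism, as miR-378a does, only miR-103-3p passed the filter, and it fell by 1.12 (SE 0.33) on the log2 scale. Of the 5 liver miRNAs 4 were tested and fell, among them miR-122-5p by 3.91 (SE 0.82) on the log2 scale. Of 6 red blood cell miRNAs, 2 were higher and 4 lower: miR-486a-5p at 2.21 (SE 0.48) and miR-486b-5p at 1.46 (SE 0.42) against miR-451a at -1.17 (SE 0.24) and miR-16-5p at -0.86 (SE 0.22). miR-486 is also expressed in muscle. Of 6 miRNAs of myeloid cells, platelets and endothelium, 2 were lower and 4 not called, and miR-126a-3p fell by 1.07 (SE 0.36). Under library totals miR-103-3p, miR-451a, miR-16-5p and miR-126a-3p kept their sign but were no longer called (adjusted p in edgeR 0.179, 0.0756, 0.271 and 0.168), nor was miR-486b-5p under library totals without miR-122-5p (adjusted p in edgeR 0.115). In Givinostat against vehicle mice no tested member of these lists was called by edgeR.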

How the data were processed

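Small RNA of plasma from 13 mice was sequenced (NEBNext small RNA libraries, NextSeq 500). Tools in the submitters' processing notes are cutadapt (1.4.2), Bowtie (1.0.0) and bcl2fastq (1.37.0), while the study's methods give Trimmomatic for trimming and miRBase 21 for annotation. The authors deposited raw counts per mature miRNA, each the sum over its isomiRs, and normalized log2 values, which equal log2 of the count plus 1 constant per library and are given for counts of 4 or more. Raw counts, 1167161 to 2899315 per library, carried the main tests: edgeR 4.0.16 (TMM, filterByExpr, quasi-likelihood test, 1 model over 4 groups), with standard errors taken as the absolute log2 fold change over the square root of F. It was tested on simulated data. Ratios used counts plus 0.5 and exact permutation tests; relations used 100000 resamples, from SciPy 1.17.1. Alternatives were other scalings and filters, DESeq2 1.42.0, the compared groups alone, limma 3.58.1 on the deposited log2 values with pseudocounts of 1 and 5, a red blood cell covariate, and each library left out. No pair of libraries within a group agreed within sampling noise (smallest chi-square per degree of freedom 104.5). Named miRNAs are the 5 members, the 8 nearest in profile to miR-378a-3p, up to 4 most abundant members per list, and miR-122-5p, miR-451a and miR-23a-3p. Members and lists were chosen with earlier results of these data known. Loci are from GENCODE M21 and sequences from RefSeq (GRCm38.p6).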

Additional observations from a re-analysis of the deposited data

Results flagged for a closer look

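In vehicle mouse 40 the log2 ratio of miR-378b to miR-378a-3p counts was -5.87, while the other 3 vehicle mice lay between -5.47 and -5.42. The gap to the nearest of them took up 0.891 of the group's range, above Dixon's 95% critical value for 4 samples. It was 1 of 11 values examined in this way for the vehicle mice, and chance marks about 1 in 20. The same mouse had the highest miR-378a-5p level of all, at 3184 CPM.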

How the results depend on the processing

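All 5 members stayed higher in the comparisons with naive wt mice under each alternative run, and lost a call only with the red blood cell ratio as covariate: 0 of 5 were then called in naive mdx and 0 of 5 in vehicle against naive wt mice, and miR-378c alone was lost in the mean of the mdx groups (adjusted p = 0.0924 in edgeR). Calls over all miRNAs moved too. With the covariate, 1, 2 and 10 of 368 were called higher in these 3 comparisons. In naive mdx against naive wt mice, 58 of 368 were called higher under library totals without miR-122-5p, 118 of 368 under library totals and 112 of 1203 without a filter. The fold changes against naive wt mice, 8.06 to 21.7 over members and mdx groups, were 4.24 to 13.1 under library totals without miR-122-5p, where all 15 moved by over 1.5 times, 3.74 to 17.1 with the covariate, where 7 did, and 5.61 to 23.4 by limma with a pseudocount of 5, where the 3 of miR-378c did. No member was called between mdx groups under any alternative. Near 0, signs turned. In vehicle minus naive mdx, miR-378a-3p took the log2 values 0.0273 (RLE), 0.0227 (upper quartile), 0.0710 (no filter), 0.0739 (mean of at least 10 CPM), 0.0234 (DESeq2), 0.00905 (the groups alone) and 0.119 (covariate), and miR-378c took 0.00729 (RLE), 0.00831 (upper quartile), 0.0541 (no filter), 0.0521 (mean of at least 10 CPM), 0.00445 (DESeq2) and 0.153 (covariate); miR-378d was 0.00315 with the mean of at least 10 CPM. With the covariate, Givinostat minus vehicle was 0.424 for miR-378a-5p and 0.00630 for miR-378c, and Givinostat minus naive mdx 0.16 for miR-378c. Leaving out 1 library gave, in vehicle minus naive mdx, -0.20 to 0.36 for miR-378a-3p, -0.24 to 0.45 for miR-378c and -0.36 to 0.28 for miR-378d, each highest without naive mdx mouse 37, and -0.259 to 0.0562 percentage points for the family share. Log2 ratios to miR-378a-3p with 1 library left out were, in Givinostat minus vehicle, -0.0242 to 0.442 (miR-378a-5p), -0.0324 to 0.252 (miR-378b), -0.0312 to 0.0761 (miR-378c) and -0.360 to 0.0139 (miR-378d), in vehicle minus naive mdx -0.0586 to 0.0796 (miR-378c) and -0.210 to 0.0411 (miR-378d), and in naive mdx minus naive wt -0.00015 to 0.33 (miR-378a-5p). Under library totals the relation to miR-378a-3p was -0.17 for miR-378a-5p, and that of family to muscle list -0.43. The causes were not tested. No paired analysis was possible because the groups share no animal numbers. Groups of 3 or 4 mice, and 5 to 11 counts of miR-378c and miR-378d in naive wt mice, limit the precision.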
